A study of Mus musculus with 8 samples.

Results

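The comparison set 4 arrays of mouse marrow cells in which the passenger strand of the microRNA miR-223 is read as intact against 4 arrays in which it is read as lacking, which takes in all 8 arrays of the series. Members were chosen by the sample titles alone. The side with the passenger strand held WT_MIG (wild-type cells) and KO_223mut (knockout cells, title read as a miR-223 vector changed in the guide strand). The side without it held KO_MIG (knockout cells) and KO_starmut (knockout cells, title read as a miR-223 vector changed in the star, or passenger, strand). Each group had 2 arrays, numbered replicates 2 and 3. The labels spell out neither MIG nor the mutations, so presence of the strand is a reading of names and not a measurement.

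All 8 samples were total bone marrow of C57/BL6 mice, with genotype mir-223-/- for 6 of them and wild type for the WT_MIG pair. Every group carried the same leukaemia-associated genes: marrow was stimulated for 2 days, transduced with retroviruses for Hoxa9 and Meis1 on producer cells irradiated with 4000 cGy, sorted for YFP and kept in neomycin at 1.4 mg/ml. The cells are therefore transduced, selected populations, and no group lacks Hoxa9 and Meis1. The 2 sides of the comparison differ in other ways too. WT_MIG differs from KO_MIG in the whole miR-223 gene, and KO_223mut differs from KO_starmut in which strand of a vector is altered.

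MicroRNAs are cut from a hairpin whose arms pair with each other. One arm, the guide, is loaded into an Argonaute protein and directs it to messenger RNAs through its seed, the bases near its 5′ end, while the other arm, the passenger or star strand, is often discarded but can be loaded as well. miR-223 is abundant in the myeloid lineage, where the guide is known to restrain granulocyte production and activation.

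The reference sequences of both strands are shown because the comparison turns on which of them is intact. They are the RefSeq sequences of GRCm38.p6 on the plus strand of chromosome X, with the seed (bases 2 to 8) in capitals.
miR-223-5p, the passenger, chrX:96242842-96242864: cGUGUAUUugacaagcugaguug
miR-223-3p, the guide, chrX:96242884-96242905: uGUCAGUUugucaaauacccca
The hairpin that holds them is shown with both mature strands in capitals.
Mir223 hairpin, chrX:96242817-96242926: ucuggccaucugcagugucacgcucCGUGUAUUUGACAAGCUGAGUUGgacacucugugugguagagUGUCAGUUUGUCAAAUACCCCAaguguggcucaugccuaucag
The seeds have the same base at 4 of 7 positions, and none of the other mature miRNAs among the 1679 in the table has either seed. In the fold predicted by RNAfold, 15 bases of the passenger pair with the guide. These take in 6 of the 7 bases of the passenger's seed, and 4 of the 7 bases of the guide's seed pair with the passenger. The altered sequences of the vectors are not used here.

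The deposited log2 signals are centred on the median of each probe set, so they show differences between arrays and no level. The replicate number was kept as a block, and each gene's value is a difference between groups on the log2 scale with its SE. Array medians lay between -0.01 and 0.01, and the SD of the difference between both replicates, over probe sets, ran from 0.166 to 0.185 by group. Whether the replicates are separate mice or separate cultures is unstated, and p-values therefore reflect only the scatter among these arrays. In bulk samples, fewer cells of a type and less RNA per cell cannot be told apart. The probe set listed for both F630028O10Rik and Mir223 read -0.98 and -1.07 in the WT_MIG arrays and -0.08 to 0.15 in the 6 others. It was lower on the passenger side (-0.55 ± 0.06, limma adjusted p = 0.0304), a difference that lay in WT_MIG alone (KO_223mut minus KO_starmut was -0.01 ± 0.08). Where its probes lie relative to the deletion is unknown here. It therefore cannot serve as a check of the genotypes, which are taken as labelled.

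The first question was which genes differed between the 4 arrays with and the 4 without the passenger strand. At an adjusted p under 0.05 limma called 32 of 28853 probe sets (0.111%), 12 higher (0.0416%) and 20 lower (0.0693%) with the passenger. An unadjusted p under 0.05 was reached by 2543 (8.81%). Without the block 8 passed, and with any 1 of the 8 arrays left out 1 to 12 passed, of which 1 to 8 were among the 32. Among the 1081 probe sets that the authors' deposited list names with a single symbol, 13 passed (1.2%), which stand for 10 genes. The named genes that rose were BC018473, D14Ertd449e, Tmem171 and Fgd6, and those that fell were Tmem47, 1700112E06Rik, Chi3l1, Cd55, Mtmr9 and Slc29a1.

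The contrast is the mean of a pair of differences that share no array, WT_MIG minus KO_MIG and KO_223mut minus KO_starmut, and the calls were carried mostly by the first. Of the 32, 29 passed in WT_MIG minus KO_MIG, where 277 passed in all (0.96%), and 1 passed in KO_223mut minus KO_starmut, the only probe set that passed there (0.00347%). The median size of the difference over the 32 was 0.93 in the first and 0.13 in the second, against 0.06 in each over all probe sets. The components had opposite signs for 7 of the 32, and in 22 the components differed from each other by the fit's own test (adjusted p under 0.05 in the guide contrast, explained below). All 4 within-replicate differences had one sign for 21 of the 32, and the groups of 4 arrays did not overlap for 6. Over all probe sets, 4195 (14.5%) had 4 differences of one sign and 600 (2.08%) separated the sides without overlap. The 32 were called on the mean of these same differences, which favours both, so the shares cannot be compared.

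BC018473, an uncharacterised transcript, shows how a call arose from WT_MIG alone. It read 5.31 and 5.34 in WT_MIG, -0.07 and 0.10 in KO_223mut, -0.06 and 0.06 in KO_MIG and -0.13 and -0.07 in KO_starmut. Only the WT_MIG arrays were high, and KO_223mut overlapped KO_MIG and lay just above KO_starmut. The contrast was 2.72 ± 0.04 (limma adjusted p = 9.71e-07), while KO_223mut minus KO_starmut was 0.11 ± 0.06 (adjusted p = 0.592, 95% interval -0.03 to 0.26).

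Chi3l1 (now Chil1), a chitinase-like protein secreted by myeloid cells, had the same form with the opposite sign. Its arrays read -1.98 and -2.14 in WT_MIG, and -0.07 to 0.14 in the 6 others. The contrast was -0.99 ± 0.06 (adjusted p = 0.00662) and the vector difference 0.12 ± 0.09 (adjusted p = 0.697). Tmem47, a membrane protein of cell junctions, read -3.05 and -2.99 in WT_MIG and -0.05 to 0.34 elsewhere, with a contrast of -1.45 ± 0.07 (adjusted p = 0.00162). In both genes only the WT_MIG arrays stood far from the others. For Tmem47 the vector difference, 0.24 ± 0.10 (adjusted p = 0.499), was opposite in sign to the contrast, with both KO_223mut arrays above both KO_starmut arrays.

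WT_MIG also stood apart from the other groups for 1700112E06Rik (now Lrmda, a gene tied to melanocyte differentiation) at -1.01 ± 0.07 (limma adjusted p = 0.00806) and for both probe sets of Mtmr9, a myotubularin-related protein without phosphatase activity, at -0.53 ± 0.04 each (adjusted p = 0.0156). The nucleoside transporter Slc29a1 (-0.35 ± 0.04, adjusted p = 0.0458), the membrane protein Tmem171 (0.48 ± 0.04, adjusted p = 0.0198) and Fgd6, an exchange factor for the GTPase Cdc42 (0.39 ± 0.04, adjusted p = 0.0386), complete this group. Their differences between KO_223mut and KO_starmut ran from -0.06 to 0.09, and none passed. Cd55, an inhibitor of complement, read -1.47 and -1.43 in WT_MIG, 0.23 and 0.03 in KO_223mut, -0.26 and -0.03 in KO_MIG, and 0.37 and 0.32 in KO_starmut. Its contrast was -0.76 ± 0.07 (adjusted p = 0.019) with -0.22 ± 0.10 between the vectors (adjusted p = 0.543), and its KO_223mut arrays lay above those of KO_MIG.

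D14Ertd449e (now Tmem254a), a small membrane protein with near-identical copies in the mouse genome, was the one called gene with a symbol in which the sides did not overlap. On its probe set 10418198 it read 0.85 and 0.80 in WT_MIG, 0.05 and 0.13 in KO_223mut, -0.05 and -0.16 in KO_MIG, and -0.23 and -0.13 in KO_starmut. All 4 passenger arrays lay above all 4 others. The contrast was 0.60 ± 0.05 (1.51-fold, adjusted p = 0.0156), made of 0.93 ± 0.07 for the genotypes and 0.27 ± 0.07 for the vectors (adjusted p = 0.326). The other probe sets of the gene gave 0.59 ± 0.06 and 0.60 ± 0.05, and since copies may share probes the 3 are not separate measurements.

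**Figure D1:**
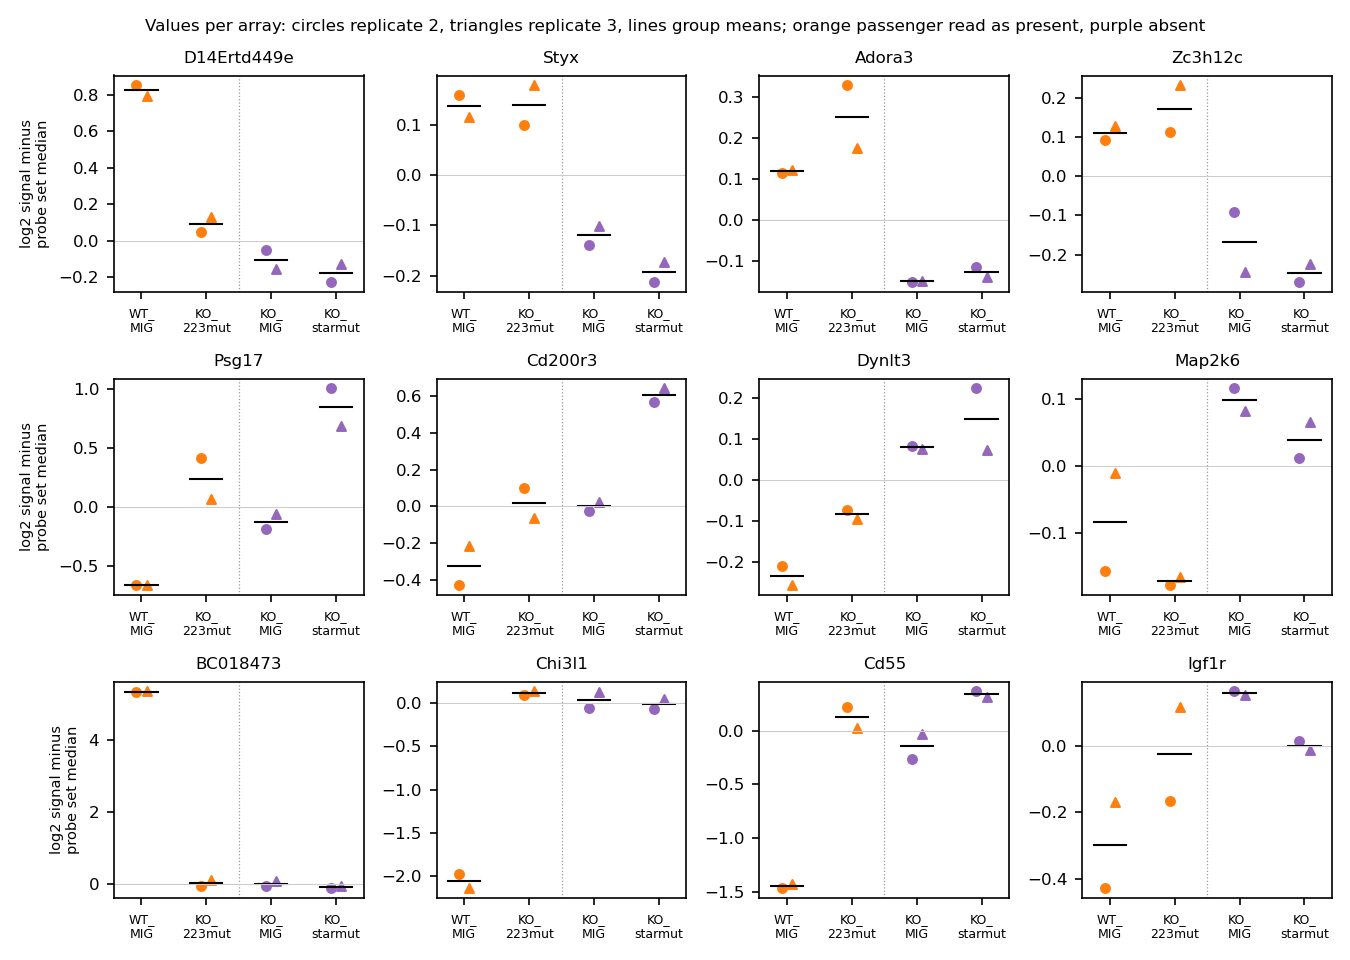
Values of 12 genes on each array, as log2 signal minus the probe set's median, with circles for replicate 2, triangles for replicate 3 and lines for group means. Styx, Adora3, Zc3h12c, Dynlt3 and Map2k6 separate the sides with similar steps in both genotype and vector groups, whereas BC018473 and Chi3l1 stand apart in WT_MIG alone. Cd55 is far lower in WT_MIG and highest in KO_starmut.

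The second question was which genes moved the same way in both components, as the definition of the comparison asks. With each component required to pass on its own (the larger of both p-values, one sign), limma called 0 of 28853 probe sets (0%). At an unadjusted p under 0.05 in both with one sign there were 192 (0.665%), 95 higher and 97 lower with the passenger, and 35 of them had a single symbol. Both p-values were under 0.05 with opposite signs in 435. All 4 within-replicate differences had one sign in 4195 probe sets (14.5%), 2300 higher and 1895 lower. A fit that treats the 8 arrays as only 2 levels, with the block, called 0 (lowest adjusted p = 0.938, 1443 with an unadjusted p under 0.05).

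**Figure D2:**
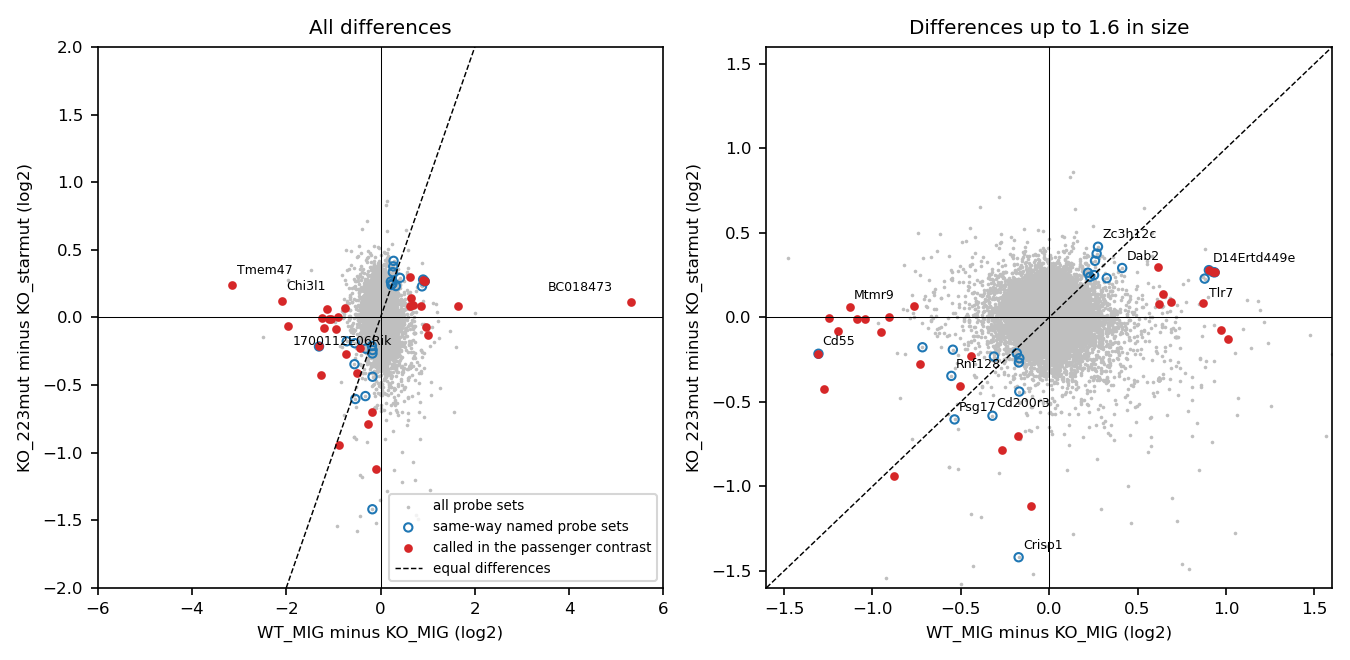
Each point is a probe set, placed by its difference WT_MIG minus KO_MIG (x axis, log2) and KO_223mut minus KO_starmut (y axis, log2), over the full range (left) and up to 1.6 in size (right). Calls of the passenger contrast (red) lie mostly along the x axis, away from the dashed line of equal differences, while the named same-way probe sets (blue) lie in the quadrants where both differences have one sign.

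Unless called above, the genes that follow are given as values. They are the 12 probe sets in each direction that rank highest by the smaller of both components, among named ones with 4 differences of one sign and an unadjusted p under 0.05. These 24 stand for 22 symbols. The last ones taken were Zfp870 (smaller component 0.22) and Gm9198 (0.17), and the first ones left were Plxnc1 (0.21) and Gabarapl1 (0.16). The sides did not overlap in 12 of the 24, 7 higher and 5 lower, and in 600 of all probe sets (2.08%). The 24 were picked by direction, p and size, which favours such separation, so these shares cannot be compared.

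The higher genes are described by what they are known to do, not by rank, beginning with receptors and signalling molecules. Adora3, an adenosine receptor found on mast cells, read 0.11 and 0.12 in WT_MIG, 0.33 and 0.17 in KO_223mut, -0.15 and -0.15 in KO_MIG, and -0.11 and -0.14 in KO_starmut. All passenger arrays lay above all others. The contrast was 0.32 ± 0.04 (1.25-fold, adjusted p = 0.0843), with 0.27 ± 0.06 for the genotypes and 0.38 ± 0.06 for the vectors.

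Styx, a phosphatase-like protein without catalytic activity, read 0.16 and 0.12 in WT_MIG, 0.10 and 0.18 in KO_223mut, -0.14 and -0.10 in KO_MIG, and -0.21 and -0.17 in KO_starmut. The groups on each side lay close together and the sides apart. It differed by 0.30 ± 0.04 (1.23-fold, adjusted p = 0.0843), and it had the smallest p of all probe sets in the 2-level fit. For Vipr1, a receptor of vasoactive intestinal peptide, the contrast was 0.24 ± 0.05 (adjusted p = 0.182), with KO_223mut at 0.03 and -0.03 between the arrays of KO_MIG at 0.08 and -0.07.

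Zc3h12c, of the Regnase family of RNA-cleaving zinc finger proteins, read 0.09 and 0.13 in WT_MIG, 0.11 and 0.23 in KO_223mut, -0.09 and -0.24 in KO_MIG, and -0.27 and -0.22 in KO_starmut. The sides did not overlap, and the contrast was 0.35 ± 0.05 (1.27-fold, adjusted p = 0.102). Refbp2 (now Alyref2), of the family of mRNA export adaptors, was more variable, at -0.29 and 0.00 in the KO_MIG arrays (contrast 0.25 ± 0.07, adjusted p = 0.352). Its sides only just did not overlap, with -0.0015 in KO_MIG replicate 3 and 0.0015 in KO_223mut replicate 3. Tlr7, the endosomal receptor for single-stranded RNA, gave 0.55 ± 0.09 (adjusted p = 0.12), of which 0.88 ± 0.13 came from the genotypes and 0.23 ± 0.13 from the vectors. Its KO_223mut arrays, at -0.15 and -0.06, were below those of KO_MIG at 0.41 and 0.06.

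The endocytic adaptor Dab2 (0.35 ± 0.05, adjusted p = 0.102), the retinal reductase Dhrs3 (0.28 ± 0.04, adjusted p = 0.0919) and the zinc finger gene Zfp870 (0.24 ± 0.04, adjusted p = 0.112) had WT_MIG high, KO_starmut low and the other groups between. In Dhrs3 both KO_223mut arrays (-0.11 and -0.13) lay below both KO_MIG arrays (0.11 and 0.15).

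Among the lower genes, Psg17, of the pregnancy-specific glycoproteins, read -0.66 and -0.67 in WT_MIG, 0.42 and 0.06 in KO_223mut, -0.19 and -0.06 in KO_MIG, and 1.0 and 0.68 in KO_starmut. Both components were of like size (-0.54 ± 0.12 and -0.60 ± 0.12), yet KO_223mut lay above KO_MIG, so the sides overlapped. The contrast was -0.57 ± 0.08 (1.48-fold lower, adjusted p = 0.0931).

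Cd200r3, a receptor of mast cells and basophils, read -0.43 and -0.22 in WT_MIG, 0.10 and -0.06 in KO_223mut, -0.02 and 0.02 in KO_MIG, and 0.57 and 0.64 in KO_starmut. KO_223mut and KO_MIG were level and the ends of the order were WT_MIG and KO_starmut (contrast -0.45 ± 0.06, adjusted p = 0.0843). The ubiquitin ligase Rnf128 (-0.45 ± 0.08, adjusted p = 0.129) and the adhesion molecule Alcam (-0.37 ± 0.05, adjusted p = 0.0826) had this order too. Crisp1, a cysteine-rich secretory protein of the epididymis, gave -0.80 ± 0.14 (adjusted p = 0.145), nearly all of it from KO_starmut, whose arrays read 1.24 and 1.21 against -0.47 to 0.15 in the 6 others.

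Smaller differences without overlap were those of Dynlt3, a dynein light chain, and Map2k6, a kinase that activates p38. Dynlt3 read -0.21 and -0.26 in WT_MIG, -0.07 and -0.09 in KO_223mut, 0.08 and 0.08 in KO_MIG, and 0.22 and 0.07 in KO_starmut, a contrast of -0.27 ± 0.04 (adjusted p = 0.111). Map2k6 gave -0.20 ± 0.05 (adjusted p = 0.271). The transcription factor genes Snai3 (-0.22 ± 0.04, adjusted p = 0.188) and Pgr, the progesterone receptor (-0.30 ± 0.07, adjusted p = 0.29), and the predicted gene Gm9198 (-0.21 ± 0.04, adjusted p = 0.183) also did not overlap. For Pgr the margin was small, with -0.0024 in KO_223mut replicate 2 and 0.0024 in KO_MIG replicate 2. Nynrin gave -0.45 ± 0.10 (adjusted p = 0.259). Its replicates 2 and 3 lay apart in KO_223mut (0.22 and -0.21) and likewise in KO_starmut (0.40 and -0.04).

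Of the 24 probe sets, 12 also passed in the vector-kind contrast (WT_MIG and KO_MIG against KO_223mut and KO_starmut). In that contrast 377 of all probe sets passed (1.31%), and 110 of the 1081 with 1 symbol (10.2%), from which the 24 were taken. The 12 were Cd55, Dab2, Dhrs3, Alcam, Rnf128, Psg17, Zfp870, Cd200r3, Tlr7 and the 3 of D14Ertd449e. In 8 of the 24, Zc3h12c, Styx, Refbp2, Adora3, Map2k6, Gm9198, Snai3 and Pgr, neither that contrast nor the guide contrast had an unadjusted p under 0.05. In 15 of the 24 the mean of KO_223mut lay on the WT_MIG side of the mean of KO_MIG. The exceptions were Cd55, Dab2, Dhrs3, Vipr1, Alcam, Rnf128, Psg17, Cd200r3 and Tlr7. The counts of 8 and 15 were not taken over all probe sets. They describe only the 24, which were picked by direction, p and size.

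**Figure D3:**
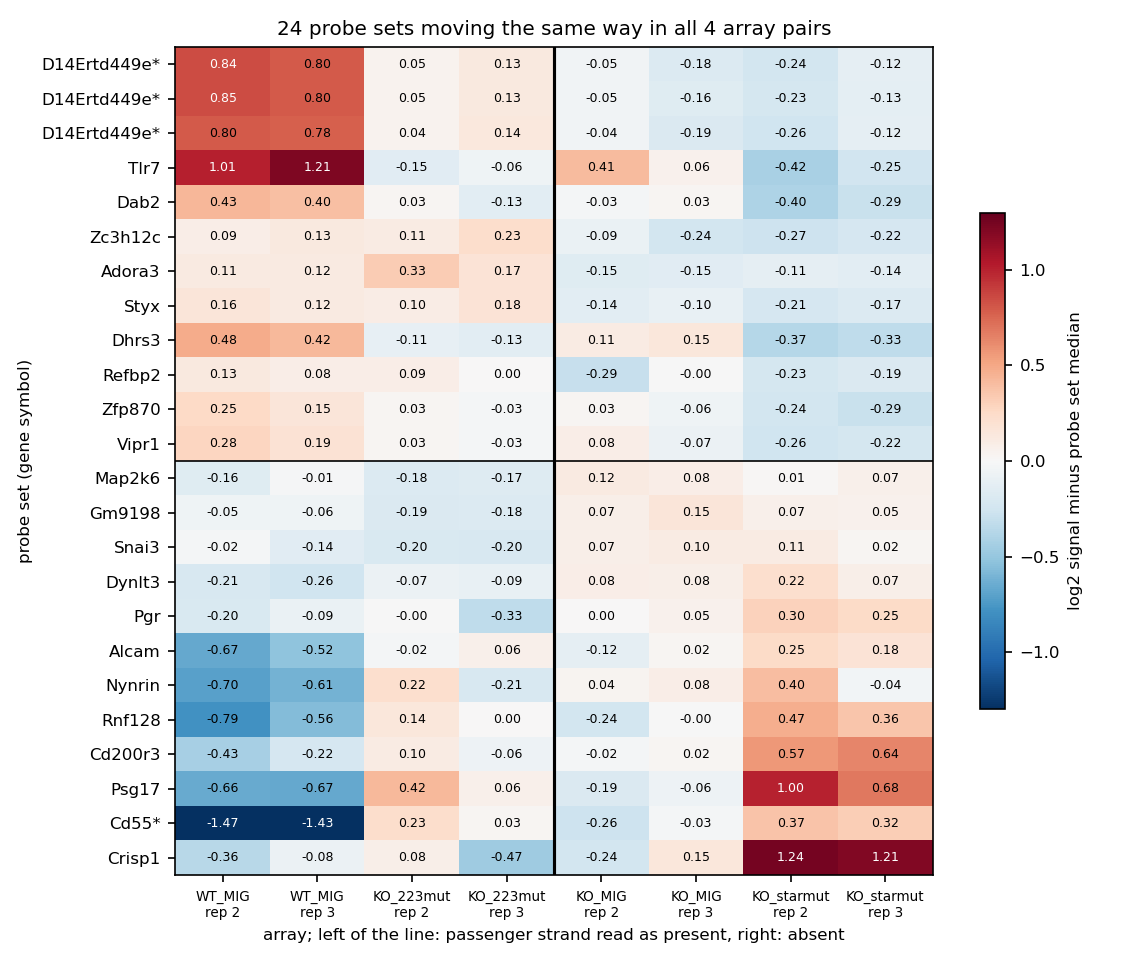
Values on the 8 arrays (log2 signal minus the probe set's median) of the 24 named probe sets with all 4 within-replicate differences of one sign, ordered by the contrast, with an asterisk where the contrast passed. The line parts the arrays read as having the passenger strand (left) from those without (right), and several genes from Alcam to Cd55 run from low in WT_MIG to high in KO_starmut with KO_223mut and KO_MIG between.

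The unnamed probe set 10435501 passed with differences of like size in both components. It read -0.64 and -0.85 in WT_MIG, -0.07 and -0.04 in KO_223mut, 0.23 and 0.04 in KO_MIG, and 1.13 and 0.64 in KO_starmut. The sides did not overlap. The contrast was -0.91 ± 0.08 (1.88-fold lower, limma adjusted p = 0.0156), with -0.88 ± 0.11 for the genotypes (adjusted p = 0.0211) and -0.94 ± 0.11 for the vectors (adjusted p = 0.142). The deposited gene list does not hold it, so it has no gene name here. The other unnamed calls given, at most 2 in each direction by size, were 10419578 (-0.85 ± 0.07), 10439321 (0.86 ± 0.09) and 10563706 (0.46 ± 0.05).

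The guide contrast is the nearest comparison on the same arrays: it sets WT_MIG and KO_starmut, read as having the guide, against KO_MIG and KO_223mut. It equals the difference between both components divided by 2, and so tests whether they differ. In limma it called 249 probe sets (0.863%) with the block and 6 without, against 32 and 8 for the passenger contrast. All 4 within-replicate differences had one sign in 18% of probe sets for the guide contrast and in 18.8% for the vector-kind contrast, against 14.5% for the passenger contrast. The groups of 4 arrays did not overlap in 2.64% and 4.46% of probe sets for these contrasts, against 2.08%. The shares were not tested against each other. Median absolute differences over all probe sets were 0.0426 for the passenger, 0.0455 for the guide and 0.0492 for the vector-kind contrast.

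**Figure D4:**
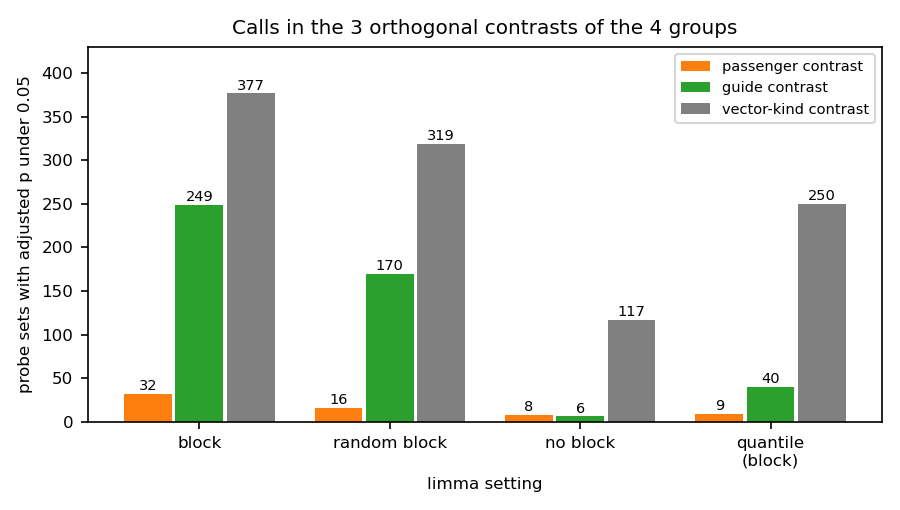
Bars give the number of 28853 probe sets with an adjusted p under 0.05 in the passenger, guide and vector-kind contrasts under 4 settings of limma. The passenger contrast had 32, 16, 8 and 9 calls, and the guide contrast fell from 249 with the block to 6 without it.

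Gene lists could be followed only through the names in the authors' list, which held 47 of 489 listed symbols. That list was chosen on these arrays, so the directions are not independent evidence. Over all lists only Chi3l1 and Slc29a1 passed in the passenger contrast. In the list of mature myeloid cells 10 of 55 genes were named, of which 1 fell (Chi3l1) and 9 did not pass, with a median of 0.04 against 0.01 over all probe sets. In 8 of the 10 the components had opposite signs, beside 587 of the 1081 named probe sets, and these shares were not tested against each other. The guide contrast called 6 of them, 5 higher and 1 lower, with a median of 0.36, beside 55 of the 1081 named probe sets (5.09%).

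Itgam, an integrin of neutrophils and macrophages, was one of these: it read 0.71 and 0.48 in WT_MIG, -0.51 and -0.59 in KO_223mut, -0.03 and 0.03 in KO_MIG, and 0.03 and -0.20 in KO_starmut. The passenger groups were the highest and the lowest, and their mean differed from the other side by 0.06 ± 0.06 (adjusted p = 0.809). The chemokine receptor Ccr1 gave 0.24 ± 0.08 (adjusted p = 0.461), from 1.06 for the genotypes and -0.58 for the vectors.

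Among innate sensors and chemoattractant receptors 12 of 55 were named, and none passed in limma, 4 having an unadjusted p under 0.05, all higher, beside 28.3% of named probe sets in either direction. Tlr7 is given above. C5ar1, the receptor of complement C5a, gave 0.35 ± 0.08 (adjusted p = 0.259), from 0.66 ± 0.11 for the genotypes and 0.03 ± 0.11 for the vectors. The inflammasome gene Nlrp3, a known target of the guide, gave -0.02 ± 0.06 (adjusted p = 0.95), with 0.46 and -0.50 in the components.

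**Figure D5:**
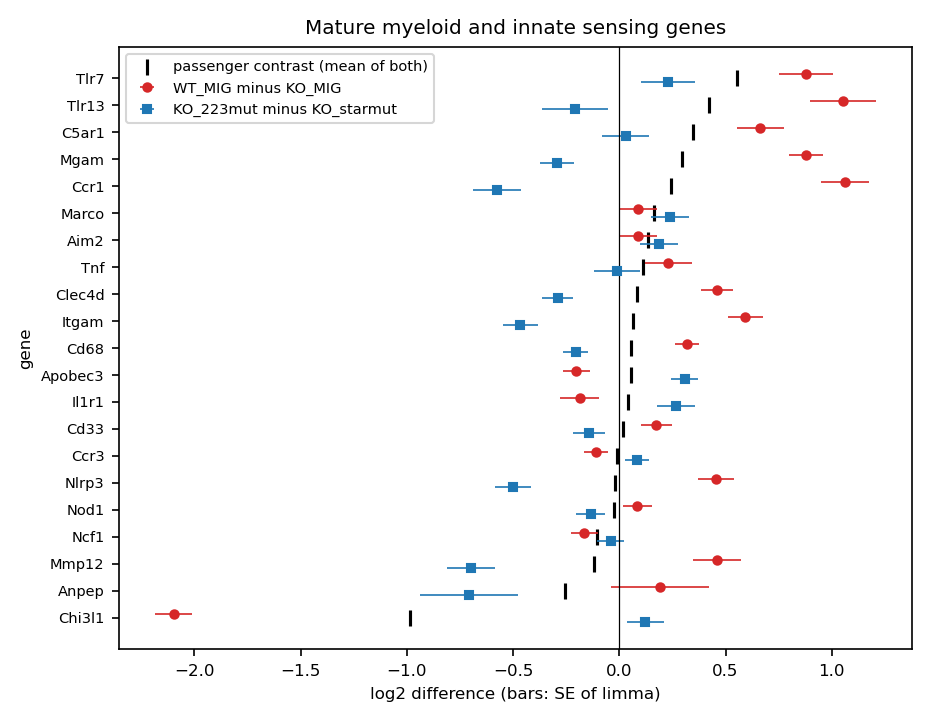
Differences of named mature myeloid and innate sensing genes on the log2 scale, with red circles for WT_MIG minus KO_MIG, blue squares for KO_223mut minus KO_starmut (bars, SE) and black ticks for the passenger contrast. For most genes the circles and squares lie on opposite sides of 0 and the tick near it. Tlr7, Marco, Aim2 and C5ar1 have both components above 0, for C5ar1 only just in the vectors.

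Genes of the IGF1 receptor and PI3-kinase axis, a growth pathway that includes a reported target of miR-223, were followed next. Of 56 listed genes 3 were named and none passed. Igf1r, the receptor, read -0.43 and -0.17 in WT_MIG, -0.17 and 0.12 in KO_223mut, 0.16 and 0.15 in KO_MIG, and 0.01 and -0.01 in KO_starmut. WT_MIG lay below both groups without the passenger, and KO_223mut overlapped KO_starmut. The contrast was -0.24 ± 0.07 (limma adjusted p = 0.372), with -0.46 ± 0.09 for the genotypes and -0.03 ± 0.09 for the vectors (95% interval -0.24 to 0.19). The S6 kinase Rps6kb1 gave -0.12 ± 0.05 (adjusted p = 0.562) and Pik3ap1, an adaptor of PI3-kinase, 0.14 ± 0.04 (adjusted p = 0.459). All 3 had an unadjusted p under 0.05, as did 28.3% of named probe sets.

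Of 37 reported targets of the guide 5 were named, none passed, and all 5 differences were negative, from -0.24 for Igf1r to -0.02 for Nlrp3. The components had opposite signs in 2 of the 5. Among the 1081 named probe sets, 587 had components of opposite sign and 538 had negative differences. Lmo2, a regulator of blood formation, gave -0.16 ± 0.06 (adjusted p = 0.491). Among other progenitor genes the surface antigen Ly6a read -0.04 and 0.19 in WT_MIG, 0.04 and -0.16 in KO_223mut, -0.85 and -0.43 in KO_MIG, and 1.15 and 1.14 in KO_starmut. The passenger groups lay between the others, and the contrast was -0.24 ± 0.09 (adjusted p = 0.535), a direction that quantile normalization turned (0.0360). The cytokine receptor Flt3 gave 0.17 ± 0.07 (adjusted p = 0.575).

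No named marker of another cell type passed in limma. Of 15 mast cell and basophil genes the named ones were Adora3 and Cd200r3, which ran in opposite directions as given above. The T and NK cell gene Cd96 and the eosinophil receptor Ccr3 were both at -0.01, and the B-lineage gene Igll1 at -0.08 ± 0.04 (adjusted p = 0.592). Of the genes of fibroblasts, the cells from which virus producer lines commonly derive, 3 of 26 were named: Mmp2 gave 0.21 ± 0.05 (adjusted p = 0.303), Dcn 0.02 and Thbs1 -0.04. No erythroid or megakaryocyte gene of the list was named. Hence the markers bear on few of the listed genes, and the part of cell composition in the differences was not tested.

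Other groups had few or no calls. Of 19 named solute carriers 1 fell (Slc29a1), beside 1.2% called among all named probe sets. Named microRNA genes were 7, all with negative differences and none called, from -0.15 for Mir186 to -0.01. In 6 of the 7 the components had opposite signs. Of the 1081 named probe sets, 587 had components of opposite sign and 538 had negative differences. Mir142, a microRNA of blood cells, gave -0.11 ± 0.08 (adjusted p = 0.753). The microRNA-processing genes Rnasen (Drosha, 0.04) and Xpo5 (-0.04), the proliferation genes Rfc3 (-0.18) and Gmnn (-0.08), the interferon pathway gene Stat2 (-0.02) and the immediate early gene Fos (0.07) did not pass either. Neither Hoxa9 nor Meis1 was named.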

How the data were processed

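RNA of 8 samples was measured on mouse gene arrays. Per the file headers, signals were summarised by RMA16 with probe annotation na31 on mm9, and the authors deposited them as log2 values centred so that the median of a probe set is 0 (within 7.02e-07). Further steps are not given in the sources used here. The authors' deposited gene list gives an uncorrected analysis of variance p-value, a linear fold change (ratio) and a signed fold change (score), none of which entered the tests. Of its 1264 probe sets, 138 have several symbols and 45 none, and 27589 probe sets outside it are unnamed. Counts and depth do not apply to arrays, and the number of arrays limits the precision. There were 9 blank cells, all in KO_starmut replicate 3, and the fit drops that array for those probe sets.

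Contrasts of 4 group means came from limma 3.58.1 (R 4.3.3, with statmod 1.5.0), over all 28853 probe sets, with 3 residual and 4.23 prior degrees of freedom, two-sided, and adjusted by Benjamini-Hochberg. The replicate number was a block because the comparison is defined so. The labels do not say what a number shares. On the values, same-numbered arrays deviated together in all 6 pairs of groups (correlations 0.36 to 0.53). The fit was tested on simulated data. RNAfold 2.7.2 folded the hairpin.

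Named were called genes with 1 symbol, the 12 same-way probe sets in each direction by the smaller component, up to 6 called members of each of 29 lists otherwise its 2 members of smallest p, and a few genes always, Mir223 and Igf1r among them. Unnamed probe sets were limited to 2 in each direction. Members and lists were chosen with earlier results of these data known. The value of 1 gene that the rule takes is not reported here. Symbols are those of the list, with current names from RefSeq (GRCm38.p6), in which 1012 of 1049 were found. Alternatives were other normalizations, other treatments of the block, robust eBayes, averaged probe sets and each array left out.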

Additional observations from a re-analysis of the deposited data

Results flagged for a closer look

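Of the 78 probe sets picked for naming in this report, 19 with a symbol had WT_MIG minus KO_MIG different from KO_223mut minus KO_starmut. The test was limma's on the difference itself, which is the guide contrast, with adjusted p-values from 1.33e-06 to 0.0431. In all, that contrast called 249 probe sets (0.863%), and 55 of the 1081 with 1 symbol (5.09%), so the 19 are not the full count. The values are the first difference minus the second, on the log2 scale. Among genes called in the passenger contrast they were 5.21 for BC018473, -3.38 for Tmem47, -2.22 for Chi3l1, -1.90 for 1700112E06Rik, -1.19 and -1.03 for Mtmr9, -1.09 for Cd55, -0.83 for Slc29a1, 0.78 for Tmem171, 0.60 for Fgd6, and 0.66 and 0.67 for D14Ertd449e. For D14Ertd449e and Cd55 both differences had one sign and unequal size. They also had one sign for BC018473, 1700112E06Rik, Tmem171, Fgd6 and probe set 10420787 of Mtmr9, where the second ran from -0.06 to 0.11. Signs were opposite for Tmem47, Chi3l1, Slc29a1 and probe set 10420785 of Mtmr9. The probe set of F630028O10Rik and Mir223 gave -1.08.

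Among genes not called in the passenger contrast, the components had opposite signs in each: 1.93 for Ly6a, 1.64 for Ccr1, 1.06 for Itgam, 0.96 for Nlrp3, 0.62 for Thbs1 and -0.50 for Igll1. No group had more than 2 arrays, so single arrays were not tested as outliers.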

How the results depend on the processing

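The number of passenger calls (32) depended on the treatment of the replicate block. Without the replicate block 8 probe sets passed in limma, all among the 32. The block-free counts were 39 for WT_MIG minus KO_MIG, 0 for KO_223mut minus KO_starmut (1358 with an unadjusted p under 0.05), 6 for the guide and 117 for the vector-kind contrast. With the block as a random term 16 passed for the passenger and 0 for the vectors (2399 with an unadjusted p under 0.05). Quantile normalization gave 9 passenger calls (2 higher and 7 lower, against 12 and 20), 7 of them among the 32, with 64 for the genotypes, 0 for the vectors (2640 with an unadjusted p under 0.05), 40 for the guide and 250 for the vector kind. The 2-level fit called 0, since the difference between the groups of a side then enters the spread. Centring arrays on their medians and robust eBayes each kept 32 calls, and averaging probe sets of a symbol gave 27.

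Leaving out single arrays gave 1 to 12 passenger calls, 45 to 203 for the genotypes, 0 to 7 for the vectors, 4 to 167 for the guide and 29 to 339 for the vector kind. Passenger calls were 11 without WT_MIG replicate 2, 12 without WT_MIG replicate 3, 1 without either KO_223mut array, 11 and 6 without KO_MIG replicates 2 and 3, and 2 and 4 without KO_starmut replicates 2 and 3. Of these, 5, 6, 1, 1, 8, 4, 2 and 4 were among the 32, in the same order. Fewer arrays leave fewer residual degrees of freedom, and the causes were not tested further. Same-way calls were 0 in every setting run, while 72 to 243 probe sets had an unadjusted p under 0.05 in both components. From group means alone 13840 probe sets had one sign in both components, and with each of the 4 differences at least 0.2 in size 48 did, against 4195.

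No named gene passed in all 15 settings. BC018473 passed in 14, Tmem47 in 12, and Chi3l1 and 1700112E06Rik in 9, and the 18 called items kept their direction in all of them. Tlr7 gained a call in 1. Some uncalled genes changed sign: quantile normalization turned Ly6a from -0.24 to 0.0360 and Cd96 from -0.01 to 0.0152, and leaving out arrays gave -0.0586 to 0.0282 for Stat2, -0.0872 to 0.0430 for Nlrp3, -0.0413 to 0.187 for Fos, -0.0671 to 0.0189 for Snora31, -0.0621 to 0.0382 for Cd96 and -0.0297 to 0.0040 for Ccr3. A filter on dim probe sets was not run, because centred values hold no level above background.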

Other observations

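Of the 10 called genes with a symbol, 3 (D14Ertd449e, Mtmr9 and 1700112E06Rik) lie on the same chromosome, 14, which holds 46 of the 1012 named symbols found in RefSeq (4.55%). Among the 22 same-way symbols 4 lie there (18.2%) and 3 (Tlr7, Rnf128 and Dynlt3) lie on the X chromosome (13.6%), which also carries Mir223 and holds 34 of the named symbols (3.36%). Of the called genes with a symbol, Tmem47 lies on the X chromosome too, and the probe set listed for F630028O10Rik and Mir223 was also called. These counts were looked at after the genes were known and carry no test.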
